A study of Homo sapiens with 6 samples.

Results

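The regions described here are early 3' ends that extend an internal exon. Each is a last exon whose 5' edge is also the 5' edge of an internal exon of the same gene name, and whose 3' end lies inside the intron that follows. There were 2144 of them in 1671 genes, among 21383 final exons of isoforms with at least 2 exons, or 10.0% (95% Wilson interval 9.63 to 10.4). Members were chosen by their listed exon edges, so these positions and lengths are a description and were not tested. They come from 1 exon annotation, in hg19 coordinates, which the authors made for 2 groups of U-87 MG cells, a human glioma cell line in long use. One group had received 10 uM EPZ015666, which inhibits the protein arginine methyltransferase PRMT5, and the other the vehicle DMSO at 10 ul per 10 ml of medium, both for 72 h. Each group had 3 libraries of poly(A)-selected RNA. The annotation covers both groups together and holds 0 columns of values per library. Levels, depth and replicate error are therefore unknown here, and EPZ015666 was not compared with DMSO.

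An internal exon normally ends at a 5' splice site, or donor, where splicing joins it to the next exon. When splicing at that donor does not occur and a poly(A) signal inside the intron is used, the exon runs on into intronic sequence and becomes the last exon of a shorter transcript. Such an exon is called a composite terminal exon, in contrast to a skipped terminal exon, which stands alone inside an intron behind its own 3' splice site. The composite transcript carries new codons up to the first in-frame stop and a 3' untranslated region of intronic origin, and such ends are known to yield truncated or soluble proteins.

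The bases on either side of the donor and the last bases before the listed end are printed for single genes, not all with a poly(A) signal. They were read from GENCODE v29 transcripts, and capitals mark the first intron bases and the first in-frame stop codon, or the stop alone where it overlaps the donor. RBBP6, a ubiquitin ligase of the cleavage and polyadenylation machinery, and CSTF3, a subunit of the cleavage stimulation factor, both have an early end in intron 4. PDGFRA, a receptor for platelet-derived growth factor, has one in intron 5. In ERBB2, RPS3, HDAC8 and UBE3A the stop codon starts at the second base of the intron, inside the donor itself.
RBBP6 junction to stop, GRCh38 chr16:24548973-24549035, plus strand: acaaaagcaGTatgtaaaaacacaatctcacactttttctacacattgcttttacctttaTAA
CSTF3 junction to stop, GRCh38 chr11:33141580-33141675, minus strand: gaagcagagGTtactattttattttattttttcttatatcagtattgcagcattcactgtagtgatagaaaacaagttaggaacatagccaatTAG
PDGFRA junction to stop, GRCh38 chr4:54265041-54265115, plus strand: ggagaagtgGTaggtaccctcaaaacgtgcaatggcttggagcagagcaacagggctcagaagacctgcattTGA
SON junction to stop, GRCh38 chr21:33567259-33567348, plus strand: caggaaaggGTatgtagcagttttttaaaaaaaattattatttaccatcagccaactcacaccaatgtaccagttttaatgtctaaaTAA
CREBBP junction to stop, GRCh38 chr16:3773718-3773759, minus strand: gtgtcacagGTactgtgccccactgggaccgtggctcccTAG
SRRM2 junction to stop, GRCh38 chr16:2760491-2760511, plus strand: aagaaggagGTatgttccTGA
PPIG junction to stop, GRCh38 chr2:169633239-169633304, plus strand: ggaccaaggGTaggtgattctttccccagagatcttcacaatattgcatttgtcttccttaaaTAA
ERBB2 junction to stop, GRCh38 chr17:39717470-39717484, plus strand: tgcacccactcgTGA
RPS3 junction to stop, GRCh38 chr11:75402436-75402450, plus strand: gctgtgcggaggTAA
HDAC8 junction to stop, GRCh38 chrX:72567885-72567899, minus strand: catgcaaagaagTAA
UBE3A junction to stop, GRCh38 chr15:25354349-25354363, minus strand: gttctgattaggTGA
RBM39 junction to stop, GRCh38 chr20:35731940-35731951, minus strand: agaagtcctTAG
In RBM39 the stop TAG takes its first bases from the exon and its last from the intron, so no codon is added.

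The last 30 bases before the end follow for the same kinds of genes. Capitals mark the poly(A) signal AATAAA or its common variant ATTAAA nearest to the end, and a sequence with no capitals holds neither within these bases.
RBBP6 last bases, GRCh38 chr16:24549372-24549401, plus strand: tttcttgcAATAAAaaatgtttggagtgta
SON last bases, GRCh38 chr21:33567438-33567467, plus strand: atttattcAATAAAtgtttattgtttacta
HDAC8 last bases, GRCh38 chrX:72567586-72567615, minus strand: tcttcatcAATAAAatgaacaaaggataca
PPIG last bases, GRCh38 chr2:169633537-169633566, plus strand: aaataAATAAAaattaaccctattcttgta
SRRM2 last bases, GRCh38 chr16:2760592-2760621, plus strand: aaataAATAAAttcagttttttttcctgca
CDC23 last bases, GRCh38 chr5:138205872-138205901, minus strand: gttgaAATAAAaaatgctgcagtgagtgtc
CREBBP last bases, GRCh38 chr16:3773637-3773666, minus strand: tggaaATTAAAattccagaatgcacatttc
RPS3 last bases, GRCh38 chr11:75403916-75403945, plus strand: attctccATTAAAggaacattgaaaaccaa
UBE3A last bases, GRCh38 chr15:25354034-25354063, minus strand: gataATTAAAataaggctaccatgtctgca
CSTF3 last bases, GRCh38 chr11:33141466-33141495, minus strand: tcttttacaagctgatgattgttgcatttt
PDGFRA last bases, GRCh38 chr4:54265324-54265353, plus strand: ttctctggctacaagatatcaaccaaaaaa

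The file writes nearly every member in the same way. In 2117 of 2144, or 98.7%, the ordinary internal exon row stands just before the extended row with the same 5' edge, and the later of the overlapping rows was kept as the last exon. Keeping the earlier row instead leaves 7 members, which follows from that layout. Parent names carry a number for each group of ends, whose meaning the sources used here do not give. None of the members stood in the highest-numbered group of its gene, and 1433, or 66.8%, stood in group 1. By construction all 2144 lay upstream of the most distal listed end of their gene, since another isoform must continue past the host intron. The distance had a median of 18563 bases (quartiles 7265 and 47950.5).

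Members at the limits of the definition were few. There were 12 ends in the first 10 bases of the intron and 5 in its last 10 bases. Just outside, 157 final exons ended exactly at the donor, 25 ended 1 to 10 bases before it and 0 ended in the first 10 bases of the next exon. The shortest members ran 1 base into the intron in SLC13A3 and TAF9, 2 bases in RPL34, and 3 bases in BRD3 and IL16. The members that stopped 1 base before the next exon were in EVC, MTCP1 and SCLY, while that in ZNF431 stopped 3 bases and that in AKT2 8 bases before it.

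Most early ends lay 100 to 10000 bases past the donor. The length into the intron had a median of 603 bases (95% interval 553 to 661 from order statistics), with quartiles of 236.75 and 1688.25. It was 101 to 300 bases in 533 members (24.9%), 301 to 1000 in 668 (31.2%) and 1001 to 10000 in 674 (31.4%), while 145 members were shorter and 124 longer. The longest were in PDZRN3, a ubiquitin ligase of neuromuscular junctions, with 194295 bases, in CAMKMT, a calmodulin methyltransferase, with 160485 bases, and in EFCAB11 with 132367 bases. GENCODE listed no end within 25 bases of any of these, and neither a stop nor a poly(A) signal could be read for them. Of the 124 ends over 10000 bases into the intron, 0 covered a listed exon of another gene on the same strand and 2 (1.61%) covered one on the other strand. Over all members these counts were 7 (0.326%) and 98 (4.57%). Another listed exon of the same gene lay wholly inside the stretch in 6 of the 124 (4.84%), against 27 of the 2020 shorter members (1.34%).

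Host introns had a median length of 4274.5 bases, and the early end covered a median of 18.5% of them (16.7 to 20.1). In 752 members, or 35.1%, the end lay in the first 10% of the intron, and in 94, or 4.38%, in the last 10%. Longer introns held longer extensions, but not in proportion. In introns of up to 1000 bases the median length into the intron was 233 bases and the median share covered was 48.8%. In introns of 3000 to 10000 bases these values were 753 bases and 13.9%, and in introns over 30000 bases they were 5573 bases and 10.1%. Spearman's rho between the length into the intron and the intron length was 0.463 over 2144 members, which share genes and introns and where the intron length bounds the extension.

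**Figure D1:**
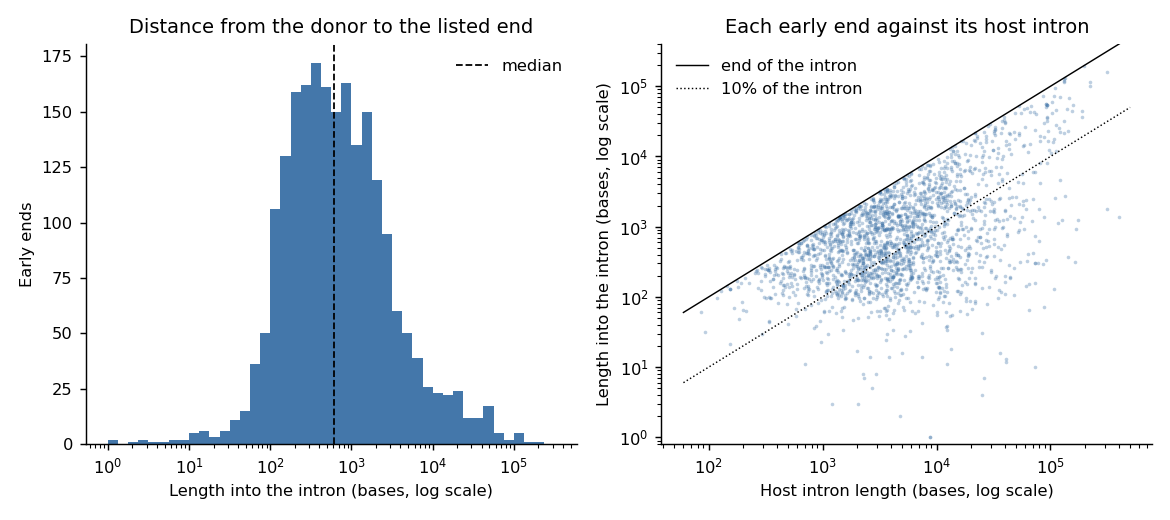
Left, number of early ends by length into the intron in bases on a log scale, with the median of 603 bases dashed. Right, each early end as a point by host intron length and length into the intron, both on log scales, with lines at the end of the intron and at 10% of it, below which 752 of 2144 points lie.

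Ends that shared a 5' edge lay at widely varying distances from each other. Of the 1980 distinct 5' edges, 147 had 2 or more ends, which gave 164 pairs of neighbouring ends with a median gap of 244.5 bases. The gap was at most 10 bases in 40 pairs (24.4%), at most 50 bases in 59 (36.0%) and over 1000 bases in 64 pairs (39.0%). HDAC8, a lysine deacetylase, had ends 303 and 306 bases into intron 4 of 10, and RAD51C, a homologous recombination protein, had ends 144 and 145 bases into intron 2 of 9. CAMKMT had ends 1768 and 160485 bases into the same intron, and UBE3A, the ubiquitin ligase of Angelman syndrome, 319 and 8719 bases into intron 12 of 13.

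Early ends were spread along genes with an excess in the last intron. The last intron held 440 of 2144 members, or 20.5% (18.9 to 22.3), against 11.1% if members fell evenly over the introns from the second on of the same isoforms. The second intron held 174, or 8.12% (7.03 to 9.35), against the same 11.1%. The first intron holds none by construction, since an internal exon must precede the host intron. On a scale of 0 at the first and 1 at the last intron the mean position was 0.619, against 0.555 for all introns from the second on, and the median was 0.647. TNXB, an extracellular matrix glycoprotein, had the most 5' member, in intron 2 of 42. The Wilson intervals here and below cover counting error only, and members of one gene are not independent.

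**Figure D2:**
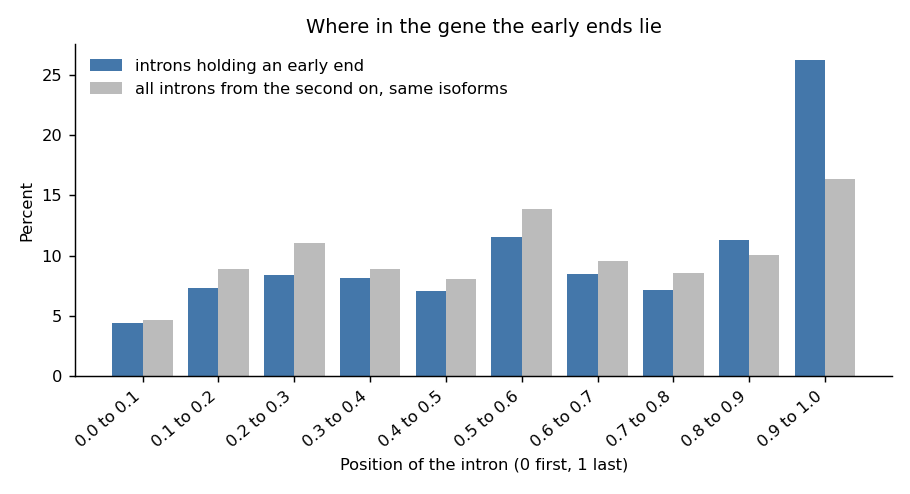
Percent of early ends (blue) and percent of all introns from the second on in the same isoforms (grey) by position of the intron, in bins of 0.1 from the first to the last intron. The last bin holds 26.3% of the early ends and 16.4% of the introns.

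Introns that held an early end were long for their gene. The log2 length of the host intron exceeded the mean over the other introns from the second on by 1.40 ± 1.78 (SD, 2135 members with such introns). It exceeded that mean in 1706 of them, or 79.9%. The host intron was the longest of these introns in 579, or 27.1%, against 10.7% if each intron were equally often the host. An end counts as a member only where it lies inside the intron, so an extension of a given length qualifies more readily in a long intron. The 492 final exons that ran through an intron were left out. These shares are therefore partly set by the definition, and no correction for intron length was made.

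The internal exons that were extended did not stand out by the share with a length that is a multiple of 3. Their median length was 133 bases, against 123 bases in other internal exons of the same genes and 123 bases in those of other genes. Some were listed as far longer, and over the 2144 members the 95th percentile was 662.25 bases and the maximum 72995 bases. The length of the extended exons was a multiple of 3 in 773 of 1980, or 39.0% (36.9 to 41.2), against 40.6% of 24205 other internal exons of the same genes and 38.8% of 98768 internal exons of other genes. The extension itself left a remainder of 0, 1 and 2 on division by 3 in 33.7%, 32.7% and 33.6% of members.

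Nearly every early end whose frame could be read met a stop codon inside the intron. Exon and intron lengths matched 1747 of 2144 members (81.5%) to a GENCODE v29 transcript of the same gene, and 1594 of these (91.2%) lay in coding sequence at the donor. The title of the deposited annotation names DI, a term the sources used here do not explain, and consensus coding isoforms. A high coding share may therefore come from how the annotation was built, which was not tested. A median of 54.2% of the coding length stood before the donor (quartiles 32.4 and 77.9). Of 1050 members whose intron bases and frame were both read, 1017, or 96.9% (95.6 to 97.8), had an in-frame stop before the listed end. The stop codon ended a median of 39 bases into the intron (quartiles 13 and 81). A median of 12 residues (quartiles 4 and 26) were added before the stop, counting a codon split by the junction, and 469 members (46.1%) added at most 10.

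The share with a stop was much the same in the other frames, at 96.7% with the frame shifted by 1 base and 96.5% with it shifted by 2. It followed the length of the extension, at 20 of 35 (57.1%) for 1 to 60 bases, 92.1% for 61 to 150 bases, 98.9% for 151 to 300 bases and 198 of 198 above 1000 bases. For 575 members the covering protein-coding transcript has an annotated stop inside the extension, and it was the same stop in all 575. Frame, bases and annotated stop all come from GENCODE, so this checks how the stops were read and is no independent support for them.

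The position of the stop differed with the phase of the donor, which is the number of bases of an unfinished codon left at the exon's end. With phase 2 the stop ended a median of 4 bases into the intron, against 48 bases with phase 0 and 50 bases with phase 1. In 152 of 224 phase 2 members, or 67.9%, the stop was read from intron bases 2 to 4, where a donor that begins GTAA, GTGA or GTAG holds TAA, TGA or TAG. This was so in ERBB2, a receptor tyrosine kinase, RPS3, a protein of the small ribosomal subunit, HDAC6 and HDAC8, deacetylases, UBE3A, and EPHA5, an ephrin receptor, each with 1 added residue. Phase 2 was the rarest phase, at 22.1% of the 1594 members in coding sequence, beside 43.0% for phase 0 and 34.8% for phase 1. Phases of other introns were not counted, so this order is not shown to be particular to early ends.

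**Figure D3:**
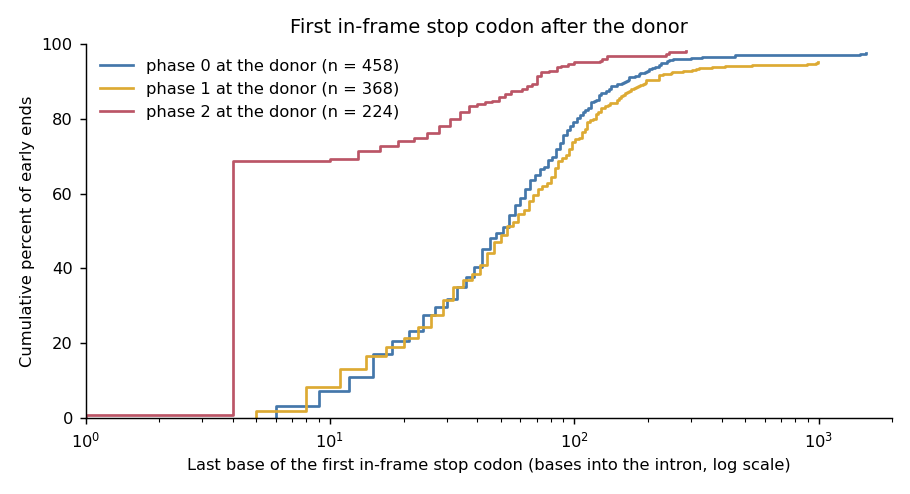
Cumulative percent of early ends by the last base of the first in-frame stop codon, in bases into the intron on a log scale, for donors of phase 0 (n = 458), phase 1 (n = 368) and phase 2 (n = 224). The phase 2 line steps up at 4 bases, where 152 members have their stop, and the lines stay below 100% because 33 members met no stop before their end.

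Most ends that could be read carried a poly(A) signal at the usual distance. AATAAA or ATTAAA stood in the last 50 bases of 820 of 1162 early ends, or 70.6% (67.9 to 73.1), searched on the transcribed strand. The hexamer began a median of 23 bases before the end (quartiles 20 and 26). Among members at least 100 bases long the share was 70.3% (744 of 1058), against 4.25% in the first 50 bases of the same introns and 3.60% in the last 50 bases of the extended exons. It was 69.2% for extensions of up to 300 bases, 70.5% for 301 to 1000 bases and 75.6% above 1000 bases, over ends that GENCODE marks as complete.

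The most distal ends of the host genes were read in the same way. In genes where both could be read, 508 of 699 early ends had a hexamer, or 72.7% (69.3 to 75.8), against 484 of 584 most distal ends, or 82.9% (79.6 to 85.7). AATAAA itself was found in 53.8% of those early ends and 69.3% of those most distal ends. The share of ends with a hexamer was highest 21 to 30 bases before the end in both, and the adjoining bins of 11 to 20 and 31 to 40 bases held 17.2% and 8.19% of the 818 early ends at least 200 bases into their intron, against 14.2% and 12.7% of the 584 most distal ends. Of the 1162 ends read here, 1068 lay within 25 bases of an end that GENCODE itself lists, so these shares describe ends known to the reference. In the 94 others the hexamer was found in 63, or 67.0% (57.0 to 75.7).

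**Figure D4:**
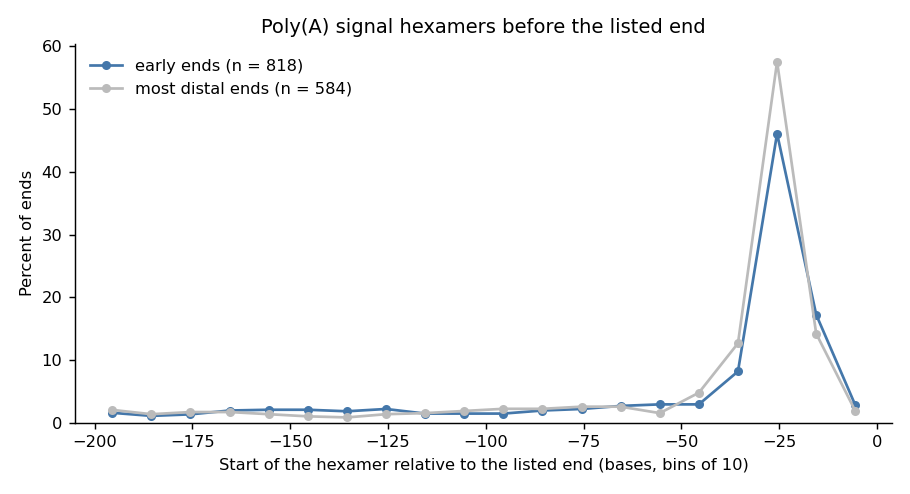
Percent of ends with AATAAA or ATTAAA beginning in each bin of 10 bases before the listed end, for 818 early ends at least 200 bases into their intron (blue) and 584 most distal ends of the same genes (grey). Both peak in the bin 21 to 30 bases before the end, at 46.1% of early ends and 57.5% of most distal ends.

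Nearly all donors that could be read began with GT. The first bases of the intron were GT in 1158 of 1162 members (99.7%), GC in 3 and AT in 1. These introns had all been matched to GENCODE introns. Further donor bases were not compared, and no other introns were set beside them. SYNE1, which encodes a giant nuclear envelope protein, has a GC donor at its end in intron 38 of 149.

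The reference listed an end close by for 1105 of the 1747 matched members, or 63.3%, and at the same base for 527. Those transcripts were classed as protein coding for 915 members (82.8%), as processed transcript for 112 (10.1%), as retained intron for 93 (8.42%) and as targets of nonsense-mediated decay for 62 (5.61%), and 1 member can have several classes. The annotation is titled as holding coding isoforms, so these shares may also depend on how it was built. The median length into the intron was 336 bases in members with such an end and 1792 bases in the 642 without one. Frames, stops and hexamers were therefore read mostly in short members, with a median of 339.5 bases, against 1389.5 bases in the 982 that no transcript covered.

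Genes with many introns held early ends more often. At least 1 was listed in 1671 of 11869 genes with an internal exon, a background of 14.1% (13.5 to 14.7). The share was 3.71% of genes with 2 or 3 introns, 7.76% with 4 to 6, 12.5% with 7 to 10, 18.7% with 11 to 20 and 28.2% with at least 21. Host genes had a median of 14 introns and a span of 61880 bases, against 8 introns and 27588.5 bases in genes without an early end. The counts below for gene lists are read beside the 14.1% and beside intron number, carry no test, and come from lists that overlap.

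Cleavage and polyadenylation factors held an early end in 6 of 23 genes (26.1%, 12.5 to 46.5), an interval that includes 14.1%, with a median of 17 introns over the list. PAPOLA, the canonical poly(A) polymerase, had 2, at 142 bases into intron 7 and 47 bases into intron 9 of 21. RBBP6 had its end at hg19 chr16:24560266-24560722 on the plus strand, 420 of 4531 bases into intron 4 of 17. It keeps 101 of 1792 codons and adds 17 residues, and its signal begins 22 bases before the end, as printed above. CSTF3 had its end at hg19 chr11:33163012-33163308 on the minus strand, 201 of 33248 bases into intron 4 of 21. It keeps 107 of 749 codons and adds 28 residues, with no hexamer in its last 50 bases and no GENCODE end within 25 bases. FIP1L1 and CPSF7, subunits of the cleavage and polyadenylation specificity factor complex and of cleavage factor I, and SSU72, a phosphatase of RNA polymerase II, were the others. PCF11, another 3' end factor, had no member, but 1 of its 2 final exons ended within an internal exon.

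Genes known from the literature for intronic poly(A) ends had an early end in 7 of 16 (43.8%), with a median of 22.5 introns. The list was put together from such reports, so a high share repeats why it was chosen. ASCC3, a helicase subunit of the activating signal cointegrator complex, had ends in introns 4 and 14 of 42. DICER1, the RNase of microRNA maturation, had none of this kind, and 1 of its 2 final exons ended within an internal exon.

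Receptor tyrosine kinases held an early end in 8 of 32 genes (25%, 13.3 to 42.1), an interval that also includes 14.1%. EGFR, the epidermal growth factor receptor, had 3, at 120 of 830 bases in intron 10, 3198 of 5737 bases in intron 15 and 452 of 2630 bases in intron 27 of 27. These keep 402, 626 and 1090 of 1210 codons. PDGFRA had its end at hg19 chr4:55131086-55131520 on the plus strand, 304 of 2239 bases into intron 5 of 21, with 253 of 1089 codons kept and 21 residues added. ERBB2 had its end at hg19 chr17:37873573-37873910 on the plus strand, 177 of 2306 bases into intron 19 of 30, with 632 of 1255 codons kept. NTRK3, a neurotrophin receptor, had ends 53669 and 53846 bases into intron 10 of 12, and ALK had 1 that left 35 bases of its intron. MET and KDR, receptors for hepatocyte growth factor and vascular endothelial growth factor, had no early end, and FLT1 was not listed.

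**Figure D5:**
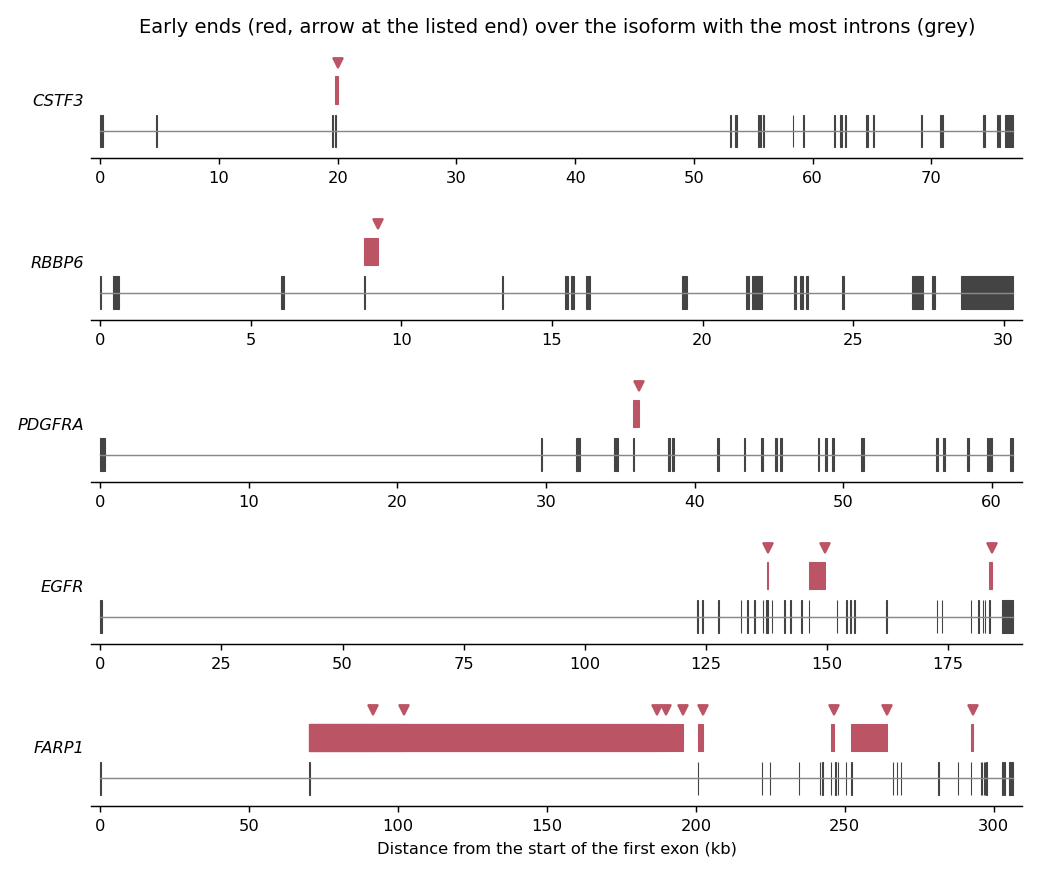
Exons of the isoform with the most introns (dark grey) and early ends (red, an arrow at each listed end) in CSTF3, RBBP6, PDGFRA, EGFR and FARP1, by distance from the start of the first exon in kb. CSTF3, RBBP6 and PDGFRA have 1 early end, EGFR 3 and FARP1 9, of which 5 share an exon edge and lie in intron 2.

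Splicing factors were counted in 2 lists, and both intervals include the background of 14.1%. SR and SR-related proteins held an early end in 6 of 31 genes (19.4%, 9.19 to 36.3). SON and SRRM2, large proteins of nuclear speckles, had 2 each, and those of SRRM2 lay 122 and 347 bases into intron 11 of 17, before most of its coding sequence, with 344 of 2752 codons kept. PPIG, a cyclophilin with an SR-rich tail, had its end in the last of 13 introns with 339 of 754 codons kept. Spliceosome genes held one in 4 of 43 (9.30%, 3.68 to 21.6), with a median of 16 introns. The 4 were CWC27, RBM25, RBM39 and SF3B1, and in SF3B1 the end lay 99 of 307 bases into intron 5 of 26. The exon extended in SF3B1 was listed with 1336 bases and was not matched to a GENCODE exon.

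Chromatin modifiers held an early end in 33 of 94 genes (35.1%, 26.2 to 45.2). The list had a median of 22.5 introns. Its interval includes the 28.2% of all genes with at least 21 introns but lies above the 18.7% of those with 11 to 20. A share matched to the intron numbers of the list was not computed. HDAC6, HDAC8 and KDM4C, a histone demethylase, had 3 each. CREBBP, a histone acetyltransferase, had ends 114 bases into intron 13 and 131 bases into intron 25 of 30, with 821 and 1426 of 2442 codons kept and ATTAAA 25 and 29 bases before the end. DNA repair genes held one in 20 of 86 (23.3%, 15.6 to 33.2), with a median of 14 introns, and the interval includes the 18.7% of all genes with 11 to 20 introns. Among them PMS1, a mismatch repair protein, had ends 1093 and 1301 bases into intron 5 of 13, and ERCC1, an excision repair nuclease subunit, had ends 240 and 242 bases into intron 10 of 10.

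In 3 further lists of genes with many introns, the intervals include the 28.2% of all genes with at least 21 introns. Ubiquitin ligases and proteases held an early end in 14 of 55 genes (25.5%, 15.8 to 38.3), extracellular matrix and adhesion genes in 15 of 49 (30.6%, 19.5 to 44.5) and regulators of small GTPases in 15 of 53 (28.3%, 18.0 to 41.6), with medians of 24, 29 and 26 introns. RNF213 had ends in introns 18 and 51 of 68, LAMA4, a laminin chain, in introns 2, 8 and 11 of 37, and COL6A3, a collagen chain, in introns 4 and 9 of 43. MDM4, a p53 inhibitor, had an end that covered 4795 of 5183 bases of intron 5 of 9.

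Cytosolic ribosomal protein genes held an early end in 3 of 72 (4.17%, 1.43 to 11.5) and oxidative phosphorylation genes in 1 of 49 (2.04%, 0.361 to 10.7), both with a median of 4 introns. Both intervals include the 7.76% of all genes with 4 to 6 introns. The ribosomal ones included RPS3 and RPL34, and the oxidative phosphorylation gene was NDUFA10 of respiratory complex I. Cell cycle and mitosis genes held one in 3 of 66 (4.55%, 1.56 to 12.5) with a median of 13 introns, beside 18.7% of all genes with 11 to 20 introns. They were CENPN, a kinetochore protein, with 2 ends, CDC23, a subunit of the anaphase-promoting complex, and SPC24 of the NDC80 complex. PRMT5, the target of EPZ015666, its partner WDR77, and CCND1, cyclin D1, had none.

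A few genes held many ends. There was 1 in 1315 genes, 2 in 279, 3 in 55 and 4 or more in 22. FARP1, a guanine nucleotide exchange factor of the FERM family, had 9. Its 5 ends in intron 2 lay 21287, 31891, 116571, 119825 and 125466 bases into 130348 bases. None of these 5 lay within 25 bases of a GENCODE end, and 1 of the 9 in FARP1 lay at a GENCODE end to the base. SYNE1 had 6, in introns 20, 25, 34, 38, 62 and 76 of 149, all in the first 0.507 of the gene by intron position. PPP2R5C, which directs protein phosphatase 2A to its substrates, had 6, of which those 131 and 152 bases into intron 16 of 17 have the same AATAAA, beginning 6 and 27 bases before the end. ADAMTSL1 also had 6. EPS15L1, MCF2L, MTERFD2, SCLY, SH3YL1, SNX29 and WDR61 had 5 each.

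Early ends that extend an exon had a smaller median distance from the donor than separate early exons. The members ended a median of 603 bases after the donor, at 18.5% of introns with a median of 4274.5 bases. The 432 final exons that stand alone inside an intron ended a median of 2001.5 bases after it, at 33.2% of introns with a median of 9169.5 bases. The difference was not tested, because the position of the end is part of how both kinds are defined. Both kinds often shared a gene. Of the 317 genes with a separate early exon, 234 (73.8%) also held a member, and these were 14.0% of the 1671 host genes. Over all 11869 genes with an internal exon the share with a member was 14.1%. That background is not a like one, because 11341 of all 13721 gene names had 1 parent at 1 locus and held 0 members. The share among genes with several ends was not computed, so no excess of shared genes is claimed.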

How the data were processed

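Poly(A)-selected RNA from 6 U-87 MG libraries, 3 with EPZ015666 and 3 with DMSO, was sequenced, as the labels' protocols state. Builds hg19 and GRCh37 and the tools RSEM, DESeq 1.10.1, bedtools 2.20.1, Bowtie 1.0.1 and STAR 2.4.1d come from the submitters' processing notes, and the step of each was not given in the sources used here. The deposited annotation holds only exon start and end positions in bases and no expression unit, so any error in the authors' isoform building passes into every value. Expression tables were not analysed here.

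The 382567 rows were joined into 31659 isoforms by parent name and order along the strand. Rows with an end before their start (76) were dropped, and of 10093 overlapping neighbours the later was kept. A member counts once per gene name, 5' edge and 3' end. The members and lists were chosen with earlier results of these data known. Named genes were the 10 with most members, the 5 longest and 5 shortest members, up to 4 genes per list, the most 5' member and a fixed set that includes PRMT5. Ties among 7 genes with 5 members placed WDR61 outside the 10, and it, SSU72, EVC, MTCP1, ZNF431 and AKT2 were named after their values were seen, to complete counts. Another gene that the rule names is not reported here.

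Host genes were matched to GENCODE v29 (GRCh38) by name (1554) or an older symbol (71), and introns by equal exon and intron length, never by position. Stops and hexamers were planned on a genome. None of that build was used here, so transcript sequences served instead, and windows at intron ends were not read. Intervals are 95% Wilson intervals, and no test was run (0 tests). Analyses used Python 3.11.15, numpy 2.4.6 and scipy 1.17.1. Tested on simulated data, 200 of 200 planted ends were recovered and 0 of 200 other ends were called. Ends were planted in isoforms already joined from the rows, so the choice between overlapping rows was not tried. The other ends stopped only at the donor or at the end of the next exon.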

Additional observations from a re-analysis of the deposited data

How the results depend on the processing

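The choice between overlapping rows decides which ends are found, by construction of the file. With the earlier row kept, 7 members remained to be counted, in 0.0506% of genes, with a median of 512 bases into the intron, 4.30% of the intron covered, a median position of 0.467, 0 in the last intron and 33.3% of exons a multiple of 3 long. With all isoforms that hold overlapping rows left out, there were 5 members, in 0.0589% of genes, with 850 bases, 6.03%, 0.75, 0 and 20% for the same quantities. With 1 end per gene, the longest, the median length was 711 bases and the share covered 22.4%, as the choice of the longest end requires. With AATAAA alone the hexamer share was 53.8%. The other 40 recalculations moved less than their interval or, for counts, less than 1.5 times. They used at least 50 bases into the intron (2096 members), 1 end per 5' edge (1980), the isoform with the most introns (2120), the nearest donor, a match that includes the next exon (hexamers 71.3%, stops 96.8%), 50 bases after the end added (73.0%, n = 163), and, chosen after seeing the data, complete reference ends (70.9% and 97.1%). The planned count over names with 1 parent gave 0 members, since each member has its own numbered parent. No paired analysis was possible because exon positions carry no value for any single library. Depth and replicate spread cannot be given for the same reason.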
